A study of Homo sapiens with 6 samples.

Results

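The Pellino ubiquitin ligases and the core genes of Toll-like receptor 4 signalling were followed in PANC1, an established cell line from a human pancreatic ductal carcinoma, and in PANC1OR, its oxaliplatin-resistant subline. The set holds 10 of the 58735 gene rows of the deposited count table. They were taken by symbol: PELI1, PELI2 and PELI3, the receptor genes TLR4, CD14 and LY96, the adaptor gene MYD88, the kinase genes IRAK4 and IRAK1, and the ligase gene TRAF6. The set was put together with the difference between the lines in view, so the values of the 10 genes are a description and no p-value is given for them. RNA of 3 untreated PANC1 cultures and 3 PANC1OR cultures was sequenced, 1 library per culture. PANC1OR was raised from PANC1 by successive passages in increasing amounts of oxaliplatin, a platinum compound that damages DNA. It is 1 derived line, which kept its growth without the drug and after thawing. Whether the harvested cultures were in drug is not given here. Both lines were grown in the same serum-containing medium, and no Toll-like receptor ligand is named among the treatments.

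Toll-like receptor 4 is the cell's sensor of bacterial lipopolysaccharide. CD14 hands the ligand to a complex of TLR4 and the small secreted protein MD-2, which LY96 encodes, and the adaptor MYD88 then assembles the kinases IRAK4 and IRAK1. IRAK1 engages TRAF6, which builds ubiquitin chains that activate the kinase TAK1 and the factor NF-kappaB, and the Pellino proteins are ubiquitin ligases that bind phosphorylated IRAK proteins through a domain of the FHA type. The interleukin-1 receptor uses the same adaptor and kinases, and the full receptor complex is best known from monocytes and macrophages.

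Libraries held 10199268 to 26394388 reads assigned to genes. PANC1OR replicate 3 stood apart from replicates 1 and 2 by the GC content of genes, and PANC1 replicate 2 differed in the same sense from replicates 1 and 3. In PANC1OR replicate 3 the median difference from replicates 1 and 2 was -0.71 in log2 over 7498 tested genes with under 45% GC and 1.05 over 4779 genes with over 55% GC. Many results that move with this library are given with and without it, though not all. Genes of duct and simple epithelium were present in both lines but did not hold one level. KRT8 was at 484 and 429 CPM and KRT18 at 338 and 315 CPM in PANC1 and PANC1OR, where CPM is counts scaled to trimmed-mean library totals. KRT19, a duct keratin gene, fell from 325.8 to 23.3 CPM (edgeR adjusted p = 0.000635), CDH1, the E-cadherin gene, from 13.3 to 5.67 CPM (0.00613) and SOX9, a duct transcription factor gene, from 202 to 127 CPM (0.0447). CFTR, a gene of duct cells, had 0 reads in all 6 libraries.

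PELI2 was almost silent in PANC1 and well expressed in PANC1OR, whereas the libraries of PELI1 and of PELI3 overlapped between the lines. PELI2 (ENSG00000139946; GRCh38, chromosome 14, 56117814 to 56301524, plus strand) had 2, 1 and 1 reads in PANC1 replicates 1 to 3, and 2643, 1599 and 877 reads in PANC1OR. These are 0.125, 0.104 and 0.0612 CPM against 98.8, 99.9 and 72.4 CPM, and the lowest PANC1OR library lay far above the highest PANC1 library. The ratio of the lines' summed reads, scaled to library totals, was 979 with an exact 95% counting interval of 382 to 3595, and the fitted log2 fold change was 9.78 ± 0.36 (SE). Intervals of this kind cover counting error only. In bulk RNA, a change in the share of cells that express a gene and a change in RNA per cell cannot be told apart. An opposite-strand long non-coding gene overlaps PELI2 and had 0 reads in PANC1 and 14 in PANC1OR. The strand setting of the counting is not given here.

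PELI1 (ENSG00000197329; chromosome 2, 64092652 to 64144420, minus strand) encodes the family member most studied in immune cells. It was at 7.22, 5.43 and 5.75 CPM in PANC1 and at 5.61, 5.43 and 5.04 CPM in PANC1OR, so the lines overlapped. Its log2 fold change was -0.20 ± 0.23. PELI3 (ENSG00000174516; chromosome 11, 66466327 to 66477337, plus strand) was at 6.29, 8.67 and 6.18 CPM in PANC1 and at 7.81, 7.49 and 17.5 CPM in PANC1OR. The lines overlapped here too, with PANC1OR replicate 3 alone above all others, and the log2 fold change of 0.63 ± 0.37 came to 0.13 without that library. It was 0.57 in a fit that offsets the GC trend of each library. PELI3 overlaps MRPL11, a mitochondrial ribosome gene on the opposite strand with 3654 and 3460 reads, so part of its reads is uncertain.

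The RefSeq promoters of PELI2 and of its near-constant paralog PELI1 are shown because the difference between these genes is what sets PELI2 apart within the family. Each is the stretch of 250 bases before the annotated start, read 5′ to 3′ on the strand of the gene (GRCh38.p14). Both lie outside every exon of GENCODE 44, and the PELI2 stretch lies within the span of the gene given above. Capitals mark the SP1 box GGGCGG on either strand.
PELI2 promoter, chr14:56118161-56118410, plus strand: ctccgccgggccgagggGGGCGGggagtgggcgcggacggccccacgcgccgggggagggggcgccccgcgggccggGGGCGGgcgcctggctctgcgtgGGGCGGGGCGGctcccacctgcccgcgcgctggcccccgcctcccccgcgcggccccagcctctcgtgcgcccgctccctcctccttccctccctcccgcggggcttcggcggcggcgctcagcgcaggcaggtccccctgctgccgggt
PELI1 promoter, chr2:64144421-64144670, minus strand: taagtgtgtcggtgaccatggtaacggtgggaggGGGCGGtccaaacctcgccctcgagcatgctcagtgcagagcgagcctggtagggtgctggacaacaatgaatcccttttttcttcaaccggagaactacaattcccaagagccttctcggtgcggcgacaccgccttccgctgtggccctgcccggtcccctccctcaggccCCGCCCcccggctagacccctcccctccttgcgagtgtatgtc

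The PELI2 window held 85.2% GC and 37 CG dinucleotides. Of 35116 RefSeq promoter windows of this length 96.0% had fewer, and the median was 11. It held 4 SP1 boxes, the last pair overlapping by a base, and 42.6% of all windows held at least 1 box. The PELI1 window held 62.4% GC, 16 CG dinucleotides and 2 boxes. Neither held the PU.1 core GAGGAA, the AP-1 site TGANTCA or a narrow form of the NF-kappaB site on either strand. This narrow form requires a run of T bases, and looser forms of the NF-kappaB site were not searched. The result says only that the searched forms are not in these windows. The shares of all windows with a match were 23.6% for the PU.1 core, 6.57% for the AP-1 site and 1.73% for this narrow form.

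All 3 genes of the lipopolysaccharide receptor were at or near 0 in PANC1 and were detected in every PANC1OR library, at levels well under that of PELI2. TLR4 (ENSG00000136869; chromosome 9, 117704175 to 117724735, plus strand), the signalling receptor, had 1, 0 and 2 reads in PANC1 and 171, 96 and 38 reads in PANC1OR. In CPM these were 0.0623, 0 and 0.122 against 6.39, 5.99 and 3.14. The ratio of summed reads was 77.8 with a 95% counting interval of 26.4 to 379, and the fitted log2 fold change was 6.06 ± 0.59, and 6.81 without PANC1 replicate 3.

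CD14 (ENSG00000170458; chromosome 5, 140631728 to 140633700, minus strand), the co-receptor that hands over the ligand, had 6, 3 and 3 reads in PANC1 and 51, 32 and 56 reads in PANC1OR. Its levels of 0.374, 0.313 and 0.183 CPM in PANC1 stood below 1.91, 2.00 and 4.62 CPM in PANC1OR without overlap. The log2 fold change was 3.24 ± 0.53, and 2.72 without PANC1OR replicate 3, the highest library.

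The TLR4 and CD14 windows before the start overlap annotated exons, so only 30 bases around the PU.1 core nearest the start are shown for each, with the core in capitals. They are printed because PU.1 is a regulator of both genes in monocytes.
TLR4, chr9:117704351-117704380, plus strand: gtggggcggctcGAGGAAgagaagacacca
CD14, chr5:140633254-140633283, minus strand: ggggctggctcgGAGGAAgagaggtgggga

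The core lay 40 bases before the start in TLR4 and 96 bases before it in CD14. The whole TLR4 window of 250 bases held 4 such cores and the CD14 window 1, beside 1 AP-1 site in CD14. The core was not particular to these genes. It was also in the MYD88 window, 18 bases before the start, and in a PELI3 window, 249 bases before it. The TLR4 and CD14 windows each had 5 CG dinucleotides, against 37 in PELI2. SPI1, the gene of PU.1, had 3 reads in PANC1 and 12 in PANC1OR.

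LY96 (ENSG00000154589; chromosome 8, 73991392 to 74029079, plus strand), the MD-2 gene, had 0 reads in all 3 PANC1 libraries and 26, 28 and 3 reads in PANC1OR. With a floor of 3 reads over the PANC1 group, its summed reads per library total were at least 14.5-fold higher in PANC1OR. With the counting error of both lines, the exact 95% interval of this ratio began at 11.4. Its PANC1OR levels were 0.972, 1.75 and 0.248 CPM, the lowest in replicate 3. LY96 was the only 1 of the 10 genes that did not pass the filter on low counts with 6 libraries.

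Monocyte and macrophage markers stayed low in both lines. Of 12 such genes, CD14 not among them, 10 were under 1 CPM in all 6 libraries, and their summed level ranged from 2.09 to 2.63 CPM in PANC1 and from 2.39 to 3.72 CPM in PANC1OR. C1QA had 0 reads, LYZ had 0 and 1, CD163 had 0 and 2, and PTPRC, the pan-leukocyte gene CD45, had 2 reads in PANC1 and 17 in PANC1OR. Other genes of the list went the other way. FCER1G had 20 and 8 reads, ITGAM 13 and 4, and CSF1R 39 and 35. CD68, a lysosomal gene, was at 0.571 and 1.55 CPM. Of 5 endothelial markers all 5 were under 1 CPM in every library. The sum of 9 fibroblast markers, 115 to 127 CPM in PANC1 and 121 to 309 CPM in PANC1OR, was mostly COL1A1, at 87.3 and 172 CPM (edgeR adjusted p = 0.123). THY1, the next most abundant of them, fell from 29.6 CPM in PANC1 to 7.32 CPM in PANC1OR (-2.02 in log2, adjusted p = 0.00141), while COL1A2 and DCN had 1 read in each line and FAP 0.

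**Figure D1:**
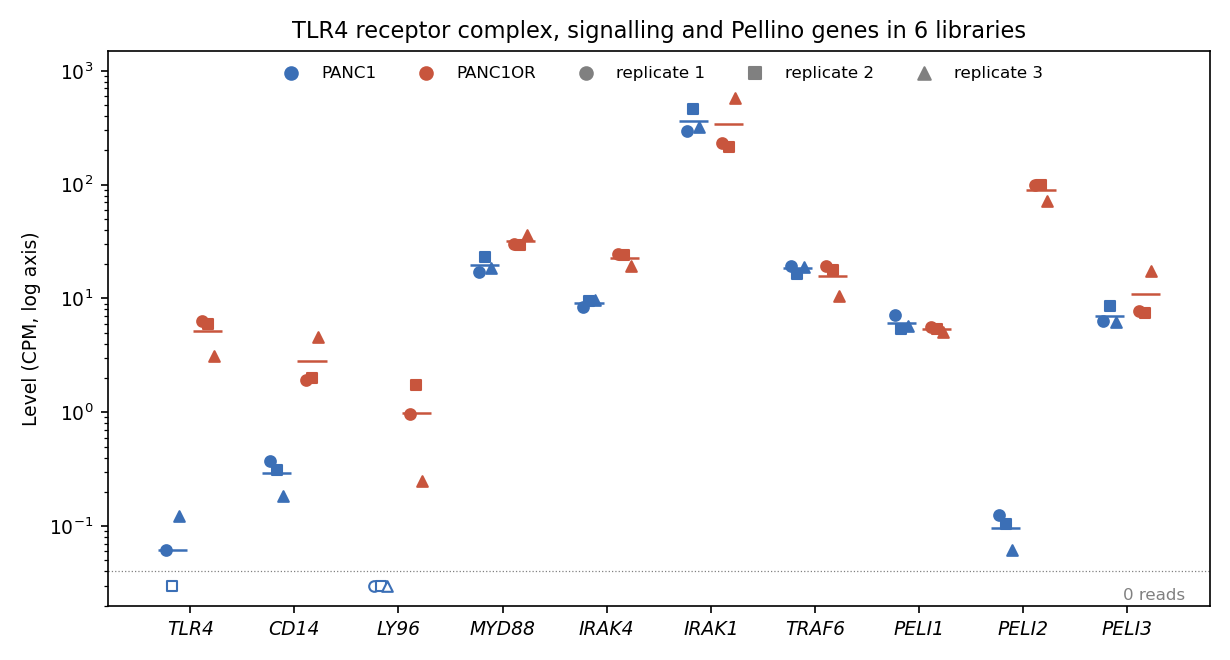
Level of each gene in each library in CPM on a log axis, PANC1 in blue and PANC1OR in red, with a marker shape per replicate and a bar at the mean of 3 libraries; open symbols under the dotted line are libraries with 0 reads. PELI2, TLR4, CD14, LY96, MYD88 and IRAK4 have every PANC1OR library above every PANC1 library, while IRAK1, TRAF6, PELI1 and PELI3 overlap.

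Of the intracellular members, MYD88 and IRAK4 were higher in PANC1OR by less than 3-fold, and IRAK1 and TRAF6 overlapped between the lines. MYD88 (ENSG00000172936; chromosome 3, 38138552 to 38143024, plus strand) was at 16.9, 23.1 and 18.5 CPM in PANC1 and at 29.8, 29.6 and 36.2 CPM in PANC1OR. The libraries did not overlap, at a log2 fold change of 0.71 ± 0.21. IRAK4 (ENSG00000198001; chromosome 12, 43758944 to 43798307, plus strand), the first kinase bound to MYD88, was at 8.47, 9.50 and 9.60 CPM in PANC1 and at 24.7, 24.3 and 19.2 CPM in PANC1OR. Its log2 fold change was 1.31 ± 0.21, and 1.41 without PANC1OR replicate 3. IRAK4 overlaps TWF1, an actin regulator gene on the opposite strand, at 83.5 ± 11.2 and 113 ± 50.8 CPM (SD, n = 3; edgeR adjusted p = 0.47), so part of the IRAK4 reads is uncertain.

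IRAK1 (ENSG00000184216; chromosome X, 154010506 to 154019902, minus strand), the kinase that carries the signal to TRAF6, was the most abundant member. It was at 295, 464 and 320 CPM in PANC1 and at 231, 214 and 572 CPM in PANC1OR. PANC1OR replicates 1 and 2 were the lowest of the 6 libraries and replicate 3 the highest. The log2 fold change was -0.09 ± 0.39 over all libraries and -0.70 without PANC1OR replicate 3. TRAF6 (ENSG00000175104; chromosome 11, 36483769 to 36510272, minus strand) was at 19.4, 16.5 and 19.1 CPM in PANC1 and at 19.2, 17.7 and 10.4 CPM in PANC1OR. Here PANC1OR replicate 3 was the lowest library, and the log2 fold change was -0.21 ± 0.27.

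The place of PANC1OR replicate 3 followed the GC content of the members. For the 6 members with under 45% GC it lay below the mean of replicates 1 and 2, by -0.13 in log2 for PELI1, -0.35 for IRAK4, -0.46 for PELI2, -0.83 for TRAF6, -0.98 for TLR4 and -2.46 for LY96. For the 3 members with over 55% GC it lay above, by 1.19 for PELI3, 1.24 for CD14 and 1.36 for IRAK1, and MYD88 at 53.9% GC stood at 0.28. In PANC1, replicate 2 stood above the mean of replicates 1 and 3 for the GC-rich IRAK1 and PELI3, by 0.59 and 0.48. The part of GC content in these differences was not tested for each gene. A fit that offsets GC trends library by library gave log2 fold changes of 9.76 for PELI2, 5.98 for TLR4 and 3.15 for CD14. It gave 1.28 for IRAK4, 0.74 for MYD88 and 0.57 for PELI3.

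**Figure D2:**
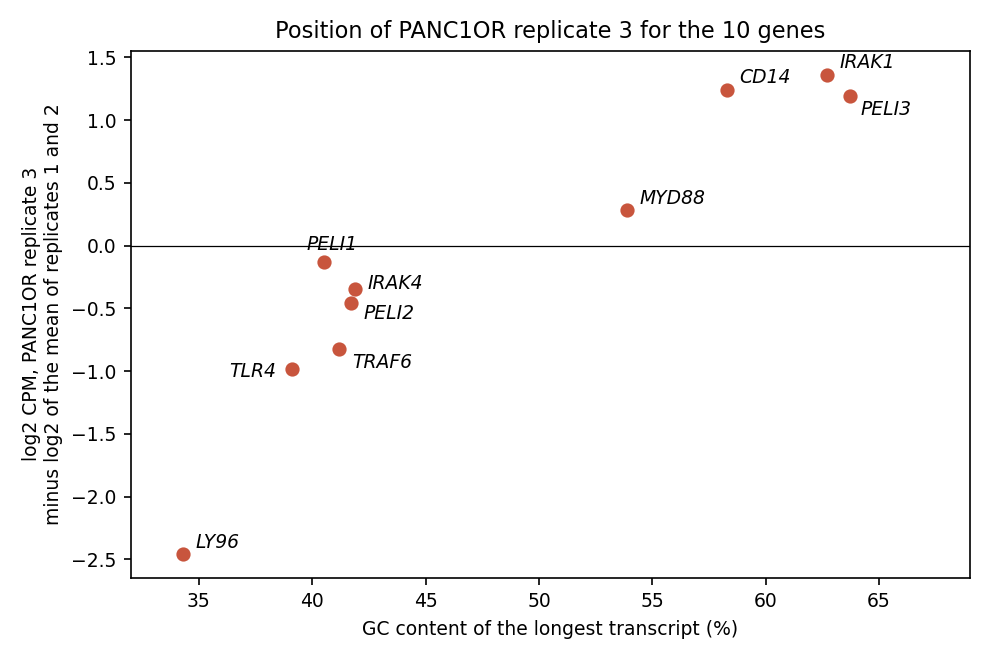
Difference in log2 CPM between PANC1OR replicate 3 and the mean of PANC1OR replicates 1 and 2 (vertical axis) against the GC content of the longest GENCODE transcript (horizontal axis, %), with 1 point per gene. LY96 at 34.3% GC lies lowest at -2.46, and IRAK1 at 62.7% GC highest at 1.36.

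By edgeR's quasi-likelihood test over all 18751 tested genes, with a call at an adjusted p under 0.05, 17.8% of genes were called. Of the 9 members tested, 4 were called (PELI2, TLR4, CD14 and IRAK4), all higher in PANC1OR, and nothing is read from this count because the members were chosen on this contrast. PELI2, TLR4 and CD14 also passed the cutoffs of the series, a log2 fold change beyond 2 and an adjusted p under 0.01, as did 6.25% of all tested genes. These 3 genes passed the filter on low counts only through PANC1OR, where they were higher. Without PANC1OR replicate 3, 44.1% of tested genes and 7 of the 10 members were called, with LY96 and MYD88 added as higher and IRAK1 as lower. LY96, with 0 reads in PANC1, also entered that fit only through PANC1OR. With GC offsets 7346 genes and 6 members were called, with MYD88 and PELI3 added as higher. All 3 PANC1OR libraries lay above all 3 PANC1 libraries for 6 of the 10 members. Of the 9 tested members this held for 5, and of all tested genes for 18.9%. Nothing is read from these counts either, for the same reason. The median log2 fold change was 0.71 over the 9 tested members and 0.04 over all tested genes. Across all 13 alternatives the log2 fold change stayed between 9.50 and 10.04 for PELI2, between 5.71 and 6.81 for TLR4, between 2.72 and 3.52 for CD14 and between 1.23 and 1.42 for IRAK4. IRAK1 ranged from -0.70 to 0.15, crossing 0, and TRAF6 from -0.40 to -0.00.

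**Figure D3:**
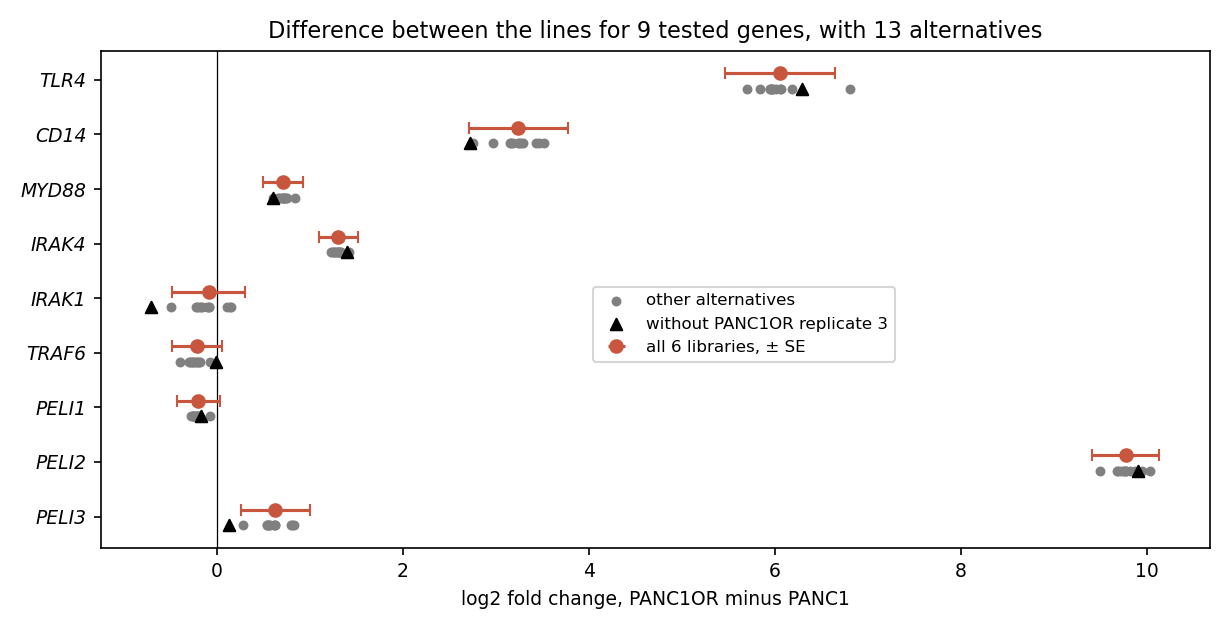
Log2 fold change (PANC1OR minus PANC1) of the 9 tested genes, in red with its SE from all 6 libraries, in grey under the alternatives and as a black triangle without PANC1OR replicate 3. PELI2, TLR4, CD14, MYD88 and IRAK4 lie right of 0 under every alternative shown, and IRAK1 falls on both sides.

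Scaled to exon length (RPKM, the CPM divided by the kilobases of GENCODE exons), the order of the members differed between the lines, with PELI2 eighth in PANC1 and second in PANC1OR. In PANC1, IRAK1 led at 84.3 ± 21.4 RPKM (SD, n = 3), followed by MYD88 at 4.65 ± 0.764, TRAF6 at 2.26 ± 0.196, PELI3 at 1.80 ± 0.359, PELI1 at 1.499 ± 0.234 and IRAK4 at 1.26 ± 0.0861 RPKM. The libraries of TRAF6 and PELI3 overlapped, as did those of PELI3 and PELI1. CD14 at 0.176 ± 0.0590 RPKM, PELI2 at 0.0155 ± 0.00519 and TLR4 at 0.00463 ± 0.00461 came last, before LY96 at 0 reads.

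In PANC1OR, PELI2 was second at 14.5 ± 2.49 RPKM, behind IRAK1 at 79.5 ± 47.3 and ahead of MYD88 at 7.60 ± 0.890 RPKM, with no overlap among these genes. IRAK4 at 3.11 ± 0.418 and PELI3 at 2.79 ± 1.45 RPKM overlapped. TRAF6 at 1.94 ± 0.58, LY96 at 1.77 ± 1.34, CD14 at 1.73 ± 0.937 and PELI1 at 1.31 ± 0.0713 RPKM overlapped one another, and TLR4 was last at 0.390 ± 0.134 RPKM. PELI2 thus stood above every other Pellino gene in each PANC1OR library and below both in each PANC1 library. Exon length is that of all annotated exons of a gene, 13277 bases for TLR4 and 559 for LY96, and which isoforms were present is not known from gene counts.

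The genes whose pattern over the 6 libraries was most like that of PELI2 were also low in PANC1, which follows from matching so large a difference. Likeness was the root mean square difference of log2 CPM, with 0.1 CPM added to each value, centred for each gene. It was taken among 10653 other tested protein-coding genes whose mean over the libraries reached 5 CPM. For genes near 0 reads in PANC1 it depends on the added 0.1. The difference was 0.30 for TRPA1, an irritant-gated cation channel gene, 0.34 for FAM83B, an adaptor gene of growth factor signalling, 0.54 for SRGN, the serglycin gene, 0.61 for DHRS9, a retinol dehydrogenase gene, and 0.72 for ST3GAL5, the synthase gene of the ganglioside GM3. ST3GAL5 was at 0.945 ± 0.368 CPM in PANC1 and 180 ± 16.1 CPM in PANC1OR (SD, n = 3).

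Around the members, 141 other genes of the pathway were listed in 11 groups, of which 92 were tested. Of these 10 rose and 13 fell by edgeR's test adjusted over all tested genes, where 10.3% of all tested genes were called higher and 7.5% lower. Their median log2 fold change was 0.03. The counts depended on single libraries. Without PANC1OR replicate 3, where 44.1% of all tested genes were called, 22 had risen and 31 fallen. Without PANC1 replicate 3, where 1821 genes were called, these were 6 and 9. Each fit counts the listed genes that it tested itself, which need not be the same 92. Adjusted p-values below come from the fit of all 6 libraries unless another is named.

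**Figure D4:**
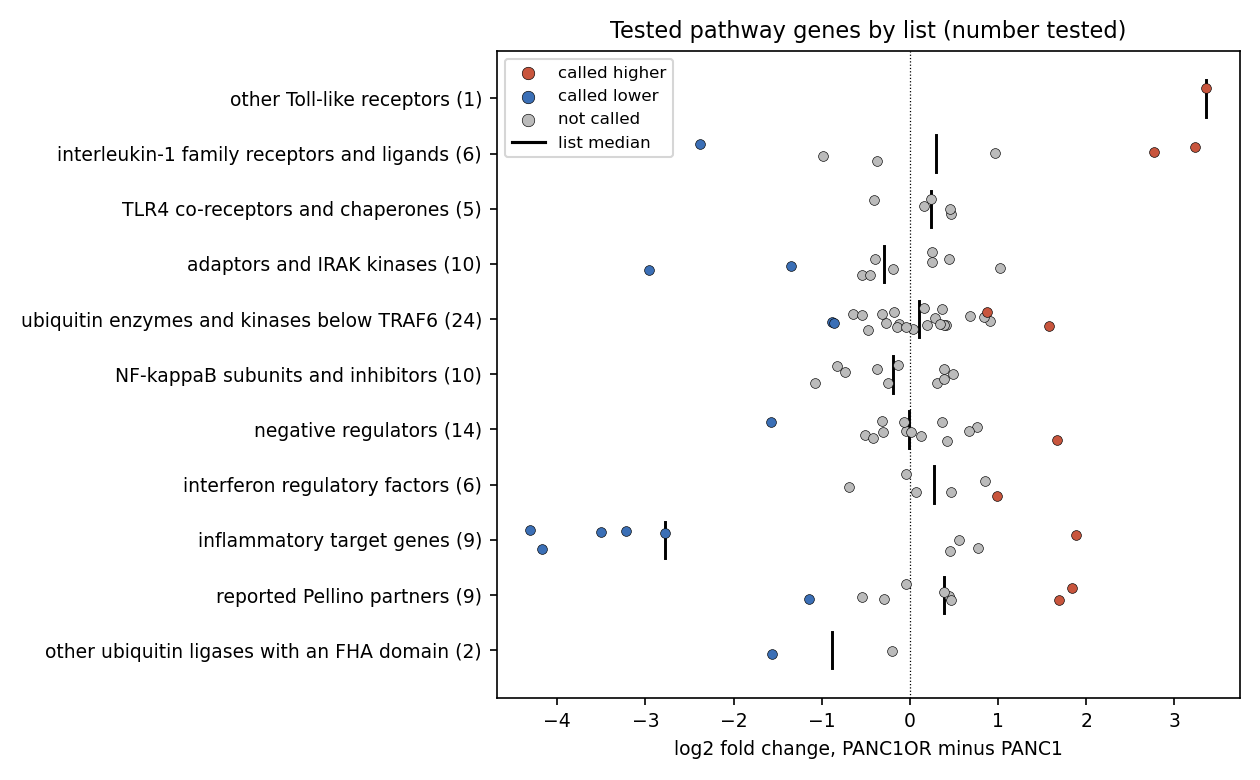
Log2 fold change (PANC1OR minus PANC1, horizontal axis) of each tested gene in the 11 pathway lists, with 1 point per gene, red where called higher, blue where called lower and grey where not called, and a black bar at the median of the list. Of the inflammatory target genes 5 lie at or left of -2.77 as called lower, and the 10 NF-kappaB genes are grey.

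Of the other Toll-like receptor genes TLR6 was the only 1 that passed the filter on low counts, and it rose. TLR6, which pairs with TLR2 to sense bacterial lipopeptides, went from 2.94 ± 0.490 CPM in PANC1 to 30.4 ± 9.70 CPM in PANC1OR, a log2 fold change of 3.36 ± 0.32 (adjusted p = 0.000302). TLR1, its close paralog, had 6 reads in PANC1, all in 1 library, and 97 in PANC1OR. The 2 genes are alike in sequence, and how reads were divided among them is uncertain. TLR2 had 0 and 2 reads, and TLR7, TLR8 and TLR9, the endosomal nucleic acid sensors, had 0 reads in every library. TLR3 and TLR5 had 5 and 21 reads in PANC1 and 2 and 10 in PANC1OR.

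The interleukin-1 branch, which shares MYD88 and the IRAK kinases, split between its receptor subunits. IL1R1, the ligand-binding chain, fell from 22.7 ± 1.16 to 4.36 ± 0.347 CPM (-2.38 ± 0.21, adjusted p = 0.000191), while IL1RAP, the shared accessory chain, rose from 2.08 ± 0.631 to 14.2 ± 4.54 CPM (2.77 ± 0.36, adjusted p = 0.00126). IL18, a cytokine of the family, rose from 8.52 ± 0.608 to 79.8 ± 22.5 CPM (3.23 ± 0.27, adjusted p = 0.000167). Its receptor genes IL18R1 and IL18RAP had at most 3 reads in a line. IL1B was at 1.72 ± 0.4997 and 0.873 ± 0.202 CPM (adjusted p = 0.101). In this list of 18 genes 6 were tested, with 2 risen, 1 fallen and 3 not called. Each of these 3 calls was kept under all 13 alternatives. IL1B was also called lower under the likelihood ratio test (0.0407), with GC offsets (0.0364) and without PANC1 replicate 2 and PANC1OR replicate 3 together (0.00581).

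Chaperones of the receptors were not called with all 6 libraries. Of 5 tested genes of the list of co-receptors and chaperones 0 were called by edgeR or by DESeq2, and 0 had an unadjusted p under 0.05. HSP90B1, the endoplasmic reticulum chaperone gp96 that folds Toll-like receptors, was at 581 ± 30.8 and 688 ± 146 CPM (adjusted p = 0.494), and its partner CNPY3 at 59.2 ± 16.5 and 44.6 ± 20.2 CPM (adjusted p = 0.487). On leaving out PANC1OR replicate 3, a fit that called 44.1% of all tested genes, HSP90B1 rose (0.40, adjusted p = 0.0251) and CNPY3 fell (-0.85, adjusted p = 0.0101). With GC offsets 1 gene of the list rose and 1 fell. Without PANC1 replicate 2 and PANC1OR replicate 3 together, 3 rose and 1 fell. The soluble carrier of lipopolysaccharide, LBP, had 3 reads in PANC1 and 0 in PANC1OR, and CD180 and LY86, a receptor pair related to TLR4 and MD-2, had 0 reads in PANC1 and 3 and 0 in PANC1OR.

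Among adaptors and IRAK kinases 0 of 10 tested genes rose and 2 fell. IRAK3, the kinase-dead family member that restrains signalling, fell from 28.2 CPM to 12.2, 14.4 and 6.69 CPM in PANC1OR replicates 1 to 3 (-1.34 ± 0.31, adjusted p = 0.0191). Its call was lost without PANC1 replicate 1 or 3 (0.079 and 0.0854). PIK3AP1, an adaptor that links the receptors to phosphoinositide 3-kinase, fell from 1.15 to 0.123 CPM (-2.96 ± 0.52, adjusted p = 0.00584), on 8 reads in PANC1OR, and stood at -3.86 without PANC1OR replicate 1. It passed the filter on low counts only through PANC1, where it was higher. TICAM1, the adaptor TRIF, was at 9.72 CPM in PANC1 and at 13.7, 12.6 and 32.9 CPM in PANC1OR (adjusted p = 0.126). Its log2 fold change was 1.02, and 0.44 without PANC1OR replicate 3. TICAM1 was called higher with GC offsets (adjusted p = 0.000589) and without the filter (0.0323). The same held without PANC1 replicate 2 and PANC1OR replicate 3 together (0.00154). TIRAP, the bridge between TLR4 and MYD88, was at 18.8 ± 1.95 and 16.5 ± 0.851 CPM and IRAK2 at 29.5 ± 2.13 and 35.2 ± 5.29 CPM (adjusted p of 0.59 and 0.46), both named after their values were seen. TICAM2, which couples TLR4 to TRIF, had 5 and 3 reads. Without PANC1OR replicate 3, a fit that called 44.1% of all tested genes, 0 of the list rose and 5 fell. With GC offsets 2 rose and 5 fell. Without PANC1 replicate 2 and PANC1OR replicate 3 together, 1 rose and 5 fell.

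Of 24 ubiquitin enzymes and kinases below TRAF6, 2 rose and 2 fell, by at most 1.58 in log2. UBE2D2, a ubiquitin-conjugating enzyme, fell from 112 to 61.8 CPM (-0.86 ± 0.17, adjusted p = 0.00934), and TAB2, the TAK1 subunit that binds ubiquitin chains, fell from 135 to 73.3 CPM (-0.88 ± 0.22, adjusted p = 0.0269). IKBKE, a kinase of the interferon arm, rose from 0.661 to 2.05 CPM (1.58 ± 0.41, adjusted p = 0.0318, and 1.16 without PANC1OR replicate 3). TIFA, an adaptor of TRAF6, rose from 3.64 to 6.68 CPM (0.87 ± 0.23, adjusted p = 0.0356). Each of these 4 calls was lost without single libraries. For UBE2D2 the adjusted p was 0.0682 without PANC1 replicate 3 and 0.0576 without PANC1OR replicate 1. For TAB2 it was 0.1004, 0.074 and 0.103 without PANC1 replicates 1, 2 and 3 and 0.0542 without PANC1OR replicate 2. For IKBKE it was 0.115, 0.0985 and 0.125 without PANC1 replicates 1, 2 and 3, and for TIFA 0.0846 to 0.157 on leaving out in turn each library but PANC1OR replicate 3. Without PANC1OR replicate 3, where 44.1% of all tested genes were called, 7 rose and 5 fell.

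The NF-kappaB subunits and inhibitors had 0 calls among 10 genes by edgeR and by DESeq2, with 3 genes at an unadjusted p under 0.05. Without PANC1OR replicate 3, where 44.1% of all tested genes were called, 2 rose and 5 fell. With GC offsets 1 rose and 4 fell. NFKB1 was at 65.3 ± 7.10 and 59.7 ± 2.76 CPM and RELA at 116 ± 13.8 and 97.8 ± 41.1 CPM (adjusted p of 0.688 and 0.633), both named after their values were seen. NFKBIA, an inhibitor that NF-kappaB itself induces, was at 34.1 ± 10.7 and 20.4 ± 3.63 CPM (-0.74 ± 0.27, adjusted p = 0.108) and fell without PANC1OR replicate 3 (-0.90, adjusted p = 0.0141). BCL3, a nuclear member of the inhibitor family, was at 28.9 CPM in PANC1 and at 8.37, 7.37 and 25.6 CPM in PANC1OR, with a log2 fold change of -1.08 (adjusted p = 0.166) for all libraries and -1.88 (8.77e-05) without PANC1OR replicate 3.

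Of the tested genes that NF-kappaB is known to induce, more were called lower than higher. Of 23 inflammatory target genes 9 were tested, of which 5 fell and 1 rose, also in direction without PANC1OR replicate 3, where a further gene rose. The other 3, LIF, IER3 and TNFAIP2, were not called and had positive log2 fold changes of 0.77, 0.56 and 0.46. They were named after their values were seen. CCL2, a monocyte chemokine, fell from 99.5 ± 28.9 to 5.03 ± 0.0796 CPM (-4.30 ± 0.27, adjusted p = 5.13e-05), and CXCL1, a neutrophil chemokine, fell from 14.3 ± 1.08 to 0.758 ± 0.224 CPM (-4.17 ± 0.29, adjusted p = 7.02e-05). CSF1, the macrophage growth factor, fell from 370.1 ± 17.6 CPM in PANC1 to 44.6, 40.1 and 77.9 CPM in PANC1OR (-2.77 ± 0.28, adjusted p = 0.000386). The chemokines CXCL8 and CCL5 also fell, from 65 to 9 reads (-3.22 ± 0.44) and from 48 to 5 reads (-3.50 ± 0.64, and -4.27 without PANC1OR replicate 2), and were named after their values were seen to complete the count. Both passed the filter on low counts only through PANC1, where they were higher. ICAM1, a leukocyte adhesion molecule, rose from 16.7 ± 2.27 to 61.3 ± 14.6 CPM (1.88 ± 0.24, adjusted p = 0.00124). All 13 alternatives called the 5 fallen genes and ICAM1 as well. The cytokine genes IL6, TNF and IFNB1 had at most 6 reads in a line, so that no difference was detectable at this depth.

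Most feedback regulators were not called. Of 14 tested negative regulators 1 rose, 1 fell and 12 were not called. Without PANC1OR replicate 3, where 44.1% of all tested genes were called, 2 rose and 4 fell. TNFAIP3, the deubiquitinase A20 that edits TRAF6 signalling and an NF-kappaB target itself, fell from 9.60 to 3.25 CPM (-1.57 ± 0.24, adjusted p = 0.00275). SOCS3, a cytokine signalling inhibitor, rose from 41.6 CPM to 94.5, 99.2 and 201 CPM in PANC1OR replicates 1 to 3 (1.66 ± 0.34, adjusted p = 0.0119), a call lost without PANC1 replicate 1 or 3 (0.0669 and 0.0686). Its log2 fold change was 1.22 without PANC1OR replicate 3. CYLD, a deubiquitinase, was at 14.7 and 24.9 CPM (0.76 ± 0.24, adjusted p = 0.0696), and its adjusted p was 0.000702 without PANC1OR replicate 3. Of 6 tested interferon regulatory factors IRF2 rose from 13.5 to 26.8 CPM (0.99 ± 0.21, adjusted p = 0.0136), with an adjusted p of 0.0865 and 0.0916 without PANC1 replicates 1 and 3 and of 0.0646 and 0.0538 without PANC1OR replicates 1 and 2. IRF5, a factor downstream of MYD88, was at 5.81 ± 0.266 and 8.09 ± 3.93 CPM (adjusted p = 0.422). Its log2 fold change of 0.47 came to -0.004 without PANC1OR replicate 3. In this list 2 rose and 2 fell without PANC1OR replicate 3, where 44.1% of all tested genes were called.

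Proteins reported as partners or substrates of Pellino ligases included 2 genes that rose and 1 that fell among 9 tested. BCL10, an adaptor of NF-kappaB activation, rose from 48.7 to 157 CPM (1.69 ± 0.20, adjusted p = 0.000822), and BCL6, a transcriptional repressor, rose from 14.2 to 50.8 CPM (1.83 ± 0.21, adjusted p = 0.000673). SMAD6, an inhibitor of BMP and TGF-beta signalling, fell from 32.8 to 14.9 CPM (-1.14 ± 0.28, adjusted p = 0.0238), and lost its call on leaving out in turn each library but PANC1OR replicate 3 (0.0697 to 0.108). RIPK1, a kinase of cell death and NF-kappaB signalling, was at 66.2 and 45.5 CPM (-0.54 ± 0.17, adjusted p = 0.0702) and fell without PANC1OR replicate 3 (adjusted p = 0.00692). Without that library, where 44.1% of all tested genes were called, 3 rose and 4 fell. Of the other 2 ubiquitin ligases with an FHA domain CHFR, a mitotic checkpoint gene, fell from 78.3 to 26.6 CPM (-1.56 ± 0.24, adjusted p = 0.00289), and RNF8, a DNA damage response gene, was at 21.95 and 19.1 CPM (adjusted p = 0.605).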

How the data were processed

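The authors deposited raw counts of reads in each gene for 3 PANC1 and 3 PANC1OR libraries. Per the submitters' processing notes and design text, adaptors were removed with cutadapt (Trim Galore 0.4.2), STAR 2.5 aligned the reads to GRCh38, and featureCounts (Subread 1.6.2) made the counts. Annotation release, strand setting and handling of multiply aligned reads: not given in the sources used here. It has 5 further blank columns.

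Genes were kept with filterByExpr, scaled with TMM factors and compared with the quasi-likelihood F test of edgeR 4.0.16 (R 4.3.3) on all 6 libraries without covariates, with Benjamini-Hochberg adjustment over 18751 genes. The code was tested on simulated data. SE is the log2 fold change over the root of F. Since each line is represented by cultures of 1 population, p-values reflect only the spread among cultures. Positions, exon lengths and GC come from GENCODE 44, and promoters from RefSeq by symbol: 9 of the 10 members matched. Motifs were searched on both strands. Ratios of summed reads carry exact conditional 95% intervals. A floor of 3 reads over a group, 0.0715 CPM in PANC1, stands for 0 reads. SOD2 of the target list was not matched by symbol.

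Members and lists were chosen with earlier results of these data known. Named were all members, up to 4 genes a list, by smallest p-value where the mean reached 1 CPM, every called gene of lists with 5 or fewer calls, the 5 genes most like PELI2 and protein-coding genes within 1 Mb of it. Further genes are marked as named after their values were seen or are given by their reads where the group is described. The alternatives were DESeq2 1.42.0, upper quartile factors, a likelihood ratio test, no filter, GC offsets, a replicate block, leaving out each library, and leaving out PANC1 replicate 2 with PANC1OR replicate 3.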

Additional observations from a re-analysis of the deposited data

How the results depend on the processing

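Over all tested genes, 3345 were called with 6 libraries, 7346 with GC offsets, 11422 without PANC1 replicate 2 and PANC1OR replicate 3 together, and 1821 to 8663 without 1 library. The extremes were without PANC1 replicate 3 and without PANC1OR replicate 3. Of the 10 members 7 were called with these 2 libraries left out together, and 4 to 7 without 1 library. Of the pathway genes 10 were called higher, with 24 under GC offsets, 32 with both libraries left out and 6 to 22 without 1 library. The 13 called lower became 29, 36 and 9 to 31. No named gene that was called changed direction under any alternative. Replicate numbers are shared between the lines. Deviations of same-numbered libraries from the means of their lines correlated at 0.444, -0.429 and -0.209 for replicates 1 to 3. Those of PANC1 replicate 2 and PANC1OR replicate 3, the 2 libraries set apart by GC content, correlated at 0.494. Whether same-numbered cultures shared a batch cannot be told from these values. With replicate number as a block, 2324 genes were called, 4 of the members and 7 and 11 pathway genes, and the calls of UBE2D2 (0.0504), TAB2, TIFA, IKBKE, IRF2 and LGALS3 were lost. TIFA was also lost with upper quartile factors (0.0594) and without the filter (0.0811). Depth limits PELI2, which rests on 4 reads in PANC1 and ranged from 9.50 without PANC1 replicate 3 to 10.04 without PANC1 replicate 1 in log2, and LY96, TLR4, CD14, PIK3AP1, CCL5 and the untested cytokine and receptor genes, whose values rest on few reads in at least 1 line.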

Other observations

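The genes next to PELI2 on chromosome 14 did not share its difference. Of 10 protein-coding genes within 1 Mb 8 were tested. LGALS3, which encodes the sugar-binding protein galectin-3, was called lower, at 31.8 ± 5.29 CPM in PANC1 and 16.6 ± 3.26 CPM in PANC1OR (SD, n = 3; log2 fold change -0.94 ± 0.24, edgeR adjusted p = 0.0294), but lost that call on leaving out in turn each library but PANC1OR replicate 3 (0.0614 to 0.0961). The other 7 were not called, with log2 fold changes from -0.18 for FBXO34, an F-box gene, to 0.29 for AP5M1, an adaptor complex gene. TMEM260, the nearest at 187 kb, was at 12.9 ± 1.58 and 12.4 ± 4.08 CPM (adjusted p = 0.931), and KTN1, the kinectin gene at 416 kb on the other side, at 523 ± 66.5 and 640 ± 210 CPM (adjusted p = 0.542). OTX2, a homeobox gene, had 0 reads in every library, and TBPL2 had 0 and 4 reads.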
